A study of Mus musculus with 6 samples.

Results

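Small interfering RNA against GATA3 was set against control siRNA in effector Th2 cells (Th2-1st cells) restimulated through the T cell receptor (TCR), and the genes described here are those that were well above background on at least 1 array of that pair. Of 18194 genes with a probe set naming them alone, 7523 had a higher signal of the pair above 250, and the pair is 2 of the 6 arrays of the study. Where several probe sets named a gene, the one brightest on average over the 6 arrays (mean of log2 signals) represented it. The study asked which Th2 genes need GATA3 to stay expressed once the cells have differentiated, and it used Affymetrix mouse genome arrays, which give 1 signal per probe set. Splenic CD4 T cells of wild-type C57BL/6 mice, 6 to 8 weeks of age, were sorted magnetically and cultured for 5 days on anti-TCR and anti-CD28 antibodies with IL-2 at 25 U/ml and IL-4 at 100 U/ml. All cells were then transfected by electroporation with GATA3 siRNA or control siRNA and analysed 24 h later. The GATA3 siRNA group was restimulated with plate-bound anti-TCR for 4 h, the control siRNA group likewise, and a further control siRNA group was left unstimulated. Th2-4th cells, which went through several further rounds of anti-TCR stimulation with IL-2 and blocking of IL-4, were given the same 3 treatments and are used here only for comparison. Each condition is 1 array of transfected bulk cells, with 1 GATA3 siRNA and 1 control siRNA, so none of the differences below could be checked against replicates, and none carries a p-value. In bulk RNA, fewer cells of a kind and less RNA per cell cannot be told apart.

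GATA3 is a zinc finger transcription factor that binds GATA motifs and is required for naive CD4 T cells to become Th2 cells. With STAT6, which carries the IL-4 signal, it opens the cluster that holds the cytokine genes Il4, Il5 and Il13, and it holds back genes of the Th1 programme such as Stat4 and Ifng. Differentiated Th2 cells keep these cytokine loci ready and transcribe them within hours of TCR engagement, through NFAT, AP-1 and NF-kappa B. Restimulated cells therefore show both the resting programme and the induced one.

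Gata3 itself had a signal of 1798 with GATA3 siRNA, against 4883 with control siRNA and 3312 in unstimulated control cells, so that the siRNA left it 2.72-fold lower than the matched control and below the unstimulated level. T cell identity genes stayed bright: 8 of 9 measured CD4 T cell markers were above 250, none of them was past 2-fold, and Cd3d, a chain of the TCR complex, read 16268 with GATA3 siRNA and 14428 with control siRNA. The ninth, Cd4, read 188 and 222 in that order. The defining genes of most other cells were dim on both arrays. Of 2 CD8 T cell markers, Cd8b1 was above the limit on both, at 444 with GATA3 siRNA and 313 with control siRNA, and Cd8a was not, at 152 and 162. None of 7 B cell, 4 erythroid and 6 stromal markers was above 250. Of 10 myeloid markers 1 was, Clec7a at 312 with GATA3 siRNA and 453 with control siRNA, of 8 dendritic cell markers 1, H2-Ab1 at 485 and 448, and of 4 NK cell markers 1, Eomes at 519 and 275. The summed signal of the 7 mast cell and basophil markers was 319.5 with GATA3 siRNA and 447 with control siRNA, of which Cpa3 made up 67.7 and 255. The other 6 summed to 252 with GATA3 siRNA and 192 with control siRNA, with Kit at 51.3 and 8.19 and Ms4a2 at 14.9 and 21.

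Among the 7523 genes, 76 were at least 2-fold lower with GATA3 siRNA (1.01%) and 101 at least 2-fold higher (1.34%). Most genes hardly differed between the arrays: the median log2 ratio was -0.002, with quartiles of -0.14 and 0.14. The width of the log2 ratios, taken as a robust SD within classes of signal and so including real changes, narrowed from 0.30 for signals of 250 to 500 to 0.12 above 8000. This width is a spread between genes on 1 array pair, not replicate error. It was narrowest in the brightest class, and of its 611 genes 10 were lower and 7 higher. Centring each array on its own median moved the median of all 18194 genes from 0.05 to -0.12, and with it the balance of the calls, to 119 lower and 63 higher (34.6% higher, against 57.1% as deposited). All 76 lower genes stayed past 2-fold under that centring, and 64 of the 101 higher ones did. A second probe set above 250 was at hand for 22 of the 76 lower genes, of which 20 had the same sign and 13 also passed 2-fold that way, and for 23 of the 101 higher genes, of which 23 and 18 were. No second probe set was past 2-fold the other way. Among 3035 genes with such a second probe set, the log2 ratios of both differed by a median of 0.14 and a 95th percentile of 0.53. Genes next to the signal limit, Npnt and Supt7l just inside at 250.6 and 250.3 and Cxcl10 and St6galnac6 just outside at 249.9 each, had log2 ratios of -0.35, -0.01, 1.24 and -0.25. Below the limit the ratios spread much more widely, with 1286 of 10671 genes lower and 2327 higher, and those genes are not described.

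**Figure D1:**
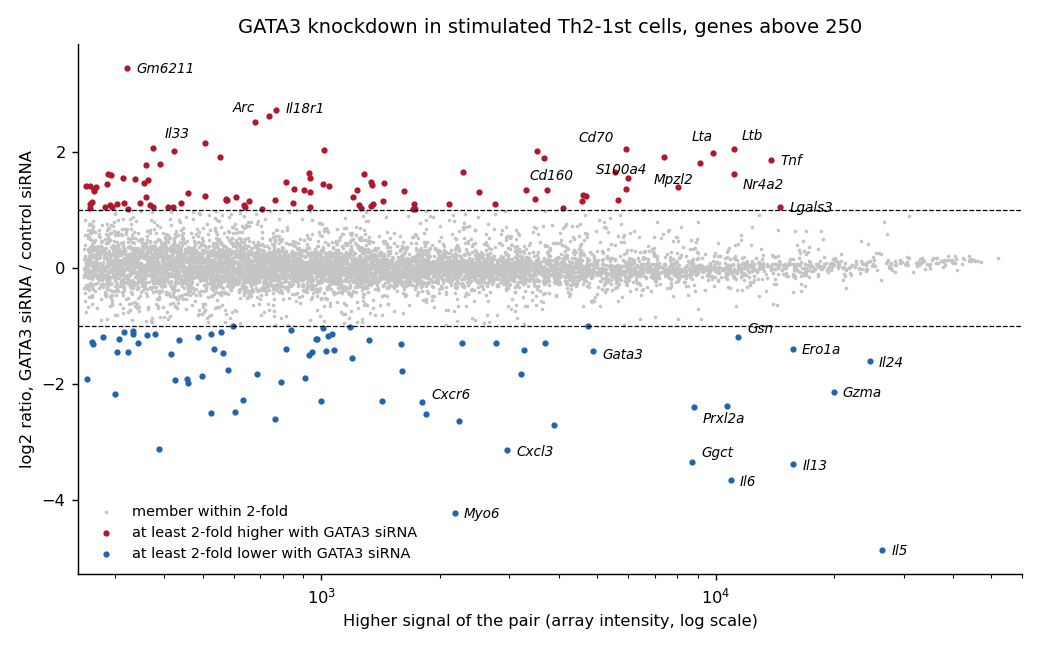
Log2 ratio of GATA3 siRNA to control siRNA in stimulated Th2-1st cells (vertical axis) against the higher signal of the pair (horizontal axis, array intensity on a log scale), 1 point per gene for 7523 genes, with dashed lines at 2-fold. The cloud narrows to the right, and Il5, Il13, Il6, Gzma and Il24 (blue) and Tnf, Ltb and Lta (red) lie far outside it at high signals.

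The promoters of 3 cytokine genes that were lower and 3 that were higher with GATA3 siRNA are printed first, because the groups went opposite ways in the same cells. Anti-TCR raised all of them but Ltb in control cells. The sequences are RefSeq's, from build GRCm38.p6, each from 250 bases before to 50 bases after the transcription start and read along the gene's own strand. Capitals mark a GATA site, here the core GATA preceded by A or T and followed by A or G, on either strand, which can overlap the AP-1 motif searched beside it by 1 base at most.
Il5, chr11:53720544-53720843, plus strand: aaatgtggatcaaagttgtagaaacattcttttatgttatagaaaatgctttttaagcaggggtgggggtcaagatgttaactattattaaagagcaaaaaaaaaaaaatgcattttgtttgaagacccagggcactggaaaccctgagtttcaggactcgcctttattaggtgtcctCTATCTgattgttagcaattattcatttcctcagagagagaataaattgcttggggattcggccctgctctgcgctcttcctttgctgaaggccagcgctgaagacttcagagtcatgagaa
Il13, chr11:53634653-53634952, minus strand: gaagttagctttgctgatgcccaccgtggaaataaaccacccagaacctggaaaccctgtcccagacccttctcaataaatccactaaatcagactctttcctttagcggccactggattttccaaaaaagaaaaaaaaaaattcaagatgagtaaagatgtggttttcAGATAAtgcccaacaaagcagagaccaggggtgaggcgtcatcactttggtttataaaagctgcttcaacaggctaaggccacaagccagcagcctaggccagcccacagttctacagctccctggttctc
Il6, chr5:30012864-30013163, plus strand: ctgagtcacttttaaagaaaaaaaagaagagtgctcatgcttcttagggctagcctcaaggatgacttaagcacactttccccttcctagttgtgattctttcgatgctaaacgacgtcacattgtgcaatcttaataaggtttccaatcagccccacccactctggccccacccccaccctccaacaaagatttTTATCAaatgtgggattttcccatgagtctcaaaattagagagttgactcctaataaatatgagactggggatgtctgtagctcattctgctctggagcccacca
Tnf, chr17:35201958-35202257, minus strand: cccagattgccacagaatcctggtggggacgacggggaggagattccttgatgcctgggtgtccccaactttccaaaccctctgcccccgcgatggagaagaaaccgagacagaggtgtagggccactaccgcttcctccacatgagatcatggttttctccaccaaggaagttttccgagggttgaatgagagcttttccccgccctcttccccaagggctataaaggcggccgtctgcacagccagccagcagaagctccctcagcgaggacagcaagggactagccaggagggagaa
Lta, chr17:35205302-35205601, minus strand: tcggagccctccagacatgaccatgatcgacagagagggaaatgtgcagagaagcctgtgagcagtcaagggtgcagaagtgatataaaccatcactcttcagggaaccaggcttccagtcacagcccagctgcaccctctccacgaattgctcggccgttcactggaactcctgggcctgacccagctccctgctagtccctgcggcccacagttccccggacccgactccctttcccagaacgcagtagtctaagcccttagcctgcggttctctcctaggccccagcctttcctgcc
Ltb, chr17:35194257-35194556, plus strand: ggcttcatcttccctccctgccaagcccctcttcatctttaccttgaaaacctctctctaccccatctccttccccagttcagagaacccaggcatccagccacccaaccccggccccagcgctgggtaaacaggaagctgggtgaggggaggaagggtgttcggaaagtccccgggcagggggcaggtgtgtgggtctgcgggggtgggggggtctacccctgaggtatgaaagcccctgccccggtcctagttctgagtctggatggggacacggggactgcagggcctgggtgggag
Il5 and Il13 lie in the Th2 cytokine cluster of chromosome 11, while Ltb, Tnf and Lta are neighbours on chromosome 17. Each of the first 3 windows held 1 GATA match and each of the last 3 held none. These 6 genes were picked after their values were seen, and over all the genes the picture was different. A GATA match was in 20.0% of the 90 promoters of the lower genes, in 14.4% of the 97 promoters of the higher genes, in 17.5% of the 7889 promoters of the genes above 250 and in 29.8% of all 32851 promoters. The AP-1 motif (TGACTCA or TGAGTCA, which are one motif read on both strands) was in 9 of those 90 promoters, in 8.25% of the 97, in 3.57% of the 7889 and in 5.20% of all. Promoters were matched for 64 of the 76 lower and 74 of the 101 higher genes.

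Il5, Il6, Il13 and Il24 were the genes of Th2 and related effector cytokines that were lower. Of 10 genes in that list, all raised by anti-TCR in control cells, 4 were lower and no gene higher, and the median log2 ratio was -0.39. Over all 7523 genes 1.01% were lower and 1.34% higher, and among those raised by anti-TCR 5.34% and 5.22%. Il5, the growth and survival factor of eosinophils, had a signal of 909 with GATA3 siRNA, 26465 with control siRNA and 163 in unstimulated control cells. This 29.1-fold difference was the widest of all 7523 genes. Il13, which drives mucus production and airway reactivity, read 1506 with GATA3 siRNA, 15757 with control siRNA and 16.9 unstimulated, a log2 ratio of -3.39. Il6, an inflammatory cytokine that also supports antibody responses, had 863, 10942 and 20.9 on the same 3 arrays (log2 ratio -3.66). Il24, a cytokine of the IL-10 family, had 8041, 24642 and 247 (log2 ratio -1.62). All 4 stayed above their unstimulated signals with GATA3 siRNA. The other 6 were within 2-fold. Il4, the cytokine that defines Th2 cells and the neighbour of Il13, read 38027 with GATA3 siRNA and 34734 with control siRNA. The growth factor genes Il3 and Csf2 had log2 ratios of 0.09 and -0.07, the follicular helper cytokine Il21 of 0.39, the itch cytokine Il31 of -0.39 and the regulatory cytokine Il10 of -0.40. Both signals of Il3 and Il4, and the control siRNA signals of Il5 and Il24, were within 2-fold of the brightest probe set of their array (52104 with GATA3 siRNA and 46409.5 with control siRNA), where a linear response of the array was not tested. The same held for both signals of Csf2, Ccl1 and Gzmb, and for Il2 and Tnfsf11 with GATA3 siRNA. Centring turned Il3 and Il4 to -0.08 and -0.04.

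TNF family ligands went mainly the other way. Of 10 such genes 5 were higher and 1 lower, with a median of 1.17. All of them but Ltb were brighter in stimulated than in unstimulated control cells. Over all 7523 genes 1.34% were higher and 1.01% lower, and among those raised by anti-TCR 5.22% and 5.34%. With the arrays centred the list's median was 0.62, over its genes above the limit after centring. Those were not the same genes, so these medians are not directly comparable. Ltb and Lta encode the chains of the lymphotoxin heterotrimer, which organises lymphoid tissue. Ltb read 11149 with GATA3 siRNA, 2708 with control siRNA and 8095 in unstimulated cells. Its control signal had thus dropped after anti-TCR, and with GATA3 siRNA it stood above the unstimulated level. Lta read 9854, 2514 and 95.5 on those arrays, and Tnf, the inflammatory cytokine encoded beside it, 13831, 3803 and 90.3. Cd70, whose receptor CD27 costimulates T cells, had 5916, 1440.2 and 30.2. The log2 ratios of Ltb, Lta, Tnf and Cd70 were 2.04, 1.97, 1.86 and 2.04, so these 4 genes moved by similar factors from different control levels. Tnfsf9, the ligand of 4-1BB, had a log2 ratio of 1.55. Tnfsf11 (RANKL, the osteoclast factor) was brightest of the list and within 2-fold, at 26709.8 with GATA3 siRNA and 15455 with control siRNA, and its mean over probe sets was 1.06. Tnfsf14, Tnfsf8 and Fasl had log2 ratios of 0.27, 0.22 and -0.25. Tnfsf10, the death ligand TRAIL, was the exception, at 202 with GATA3 siRNA and 788 with control siRNA. On the receptor side, 1 of 9 TNF receptor family genes was higher and none lower: Tnfrsf1a, the main receptor of TNF, had a log2 ratio of 1.16, or 0.99 with the arrays centred.

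**Figure D2:**
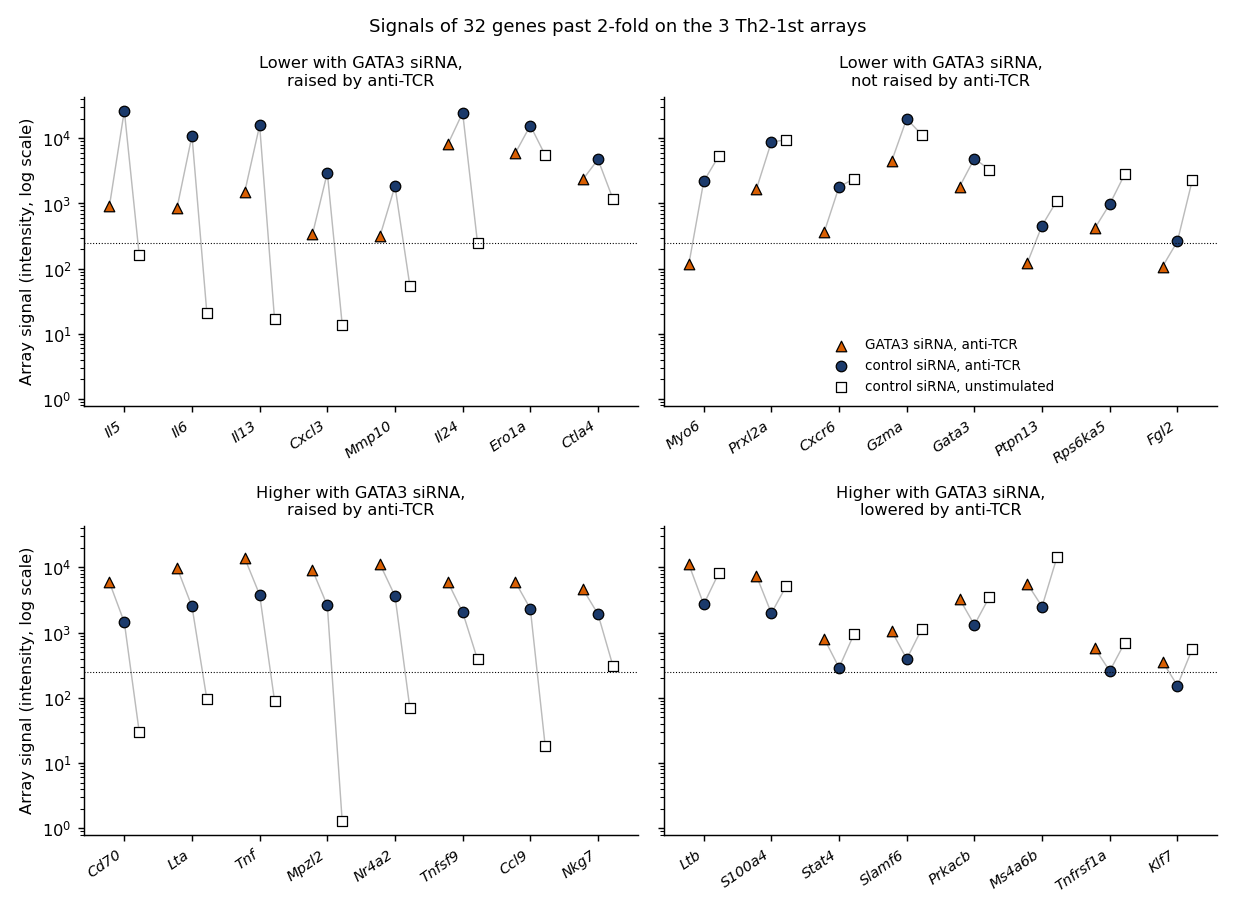
Array signal (vertical axis, log scale) of 32 genes past 2-fold on the 3 Th2-1st arrays, 1 symbol per array: GATA3 siRNA with anti-TCR (orange triangles), control siRNA with anti-TCR (dark circles) and control siRNA unstimulated (open squares). Il5 at 909, 26465 and 163 shows a triangle between circle and square, Myo6 at 117, 2184 and 5268 a triangle below both, and Cd70 at 5916, 1440.2 and 30.2 a triangle above both; the dotted line is the signal limit of 250.

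Other secreted factors moved singly. Of 14 growth and inflammatory cytokine genes 2 were higher and none lower, beside 1.34% and 1.01% of all 7523 genes. Il33, an alarmin better known from epithelium, read 506 with GATA3 siRNA, 114 with control siRNA and 8.48 unstimulated, and Clcf1, which signals through the CNTF receptor, 3521, 873 and 288. Both probe sets of Clcf1 above the limit had this direction (log2 ratios of 2.01 and 2.24). Ifng, the Th1 cytokine, was bright in these Th2 cells after stimulation and within 2-fold, at 23417 with GATA3 siRNA and 16961 with control siRNA. Il2, the T cell growth factor, had a log2 ratio of 0.89. Among 9 chemokine genes 1 was lower and 1 higher. Cxcl3, a neutrophil attractant, read 334 with GATA3 siRNA, 2964 with control siRNA and 13.9 unstimulated, whereas its relative Cxcl2 had a log2 ratio of only -0.51. Ccl9, a chemokine for myeloid cells, read 5942, 2328 and 18.2 in the same order of arrays. Ccl1, a ligand of the Th2 receptor CCR8, differed by 0.08 at signals as bright as those of Il4. Of 6 chemokine receptor genes 2 were lower and none higher. Cxcr6, a receptor of effector T cells for CXCL16, read 362 with GATA3 siRNA, 1801 with control siRNA and 2381 unstimulated, and its second probe set had a log2 ratio of -2.03. Ccr1 had 162 and 362 with GATA3 and control siRNA, and was short of 2-fold by the mean over probe sets (-0.78), under which the median of the chemokine receptors also turned, from -0.36 to 0.44.

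Of 17 genes of the Th1 axis 6 were higher and none lower, where 1.34% of all 7523 genes were higher and 1.01% lower. The median of the list was 0.47, and 0.29 with the arrays centred. Il18r1 and Il18rap, the paired chains of the IL-18 receptor that lets Th1 cells respond to IL-18, were both among them. Il18r1 read 769 with GATA3 siRNA, 117 with control siRNA and 197 unstimulated, and Il18rap 2282, 725 and 594. Both were thus brighter with GATA3 siRNA than on either control array. Stat4, which transmits IL-12, read 811 with GATA3 siRNA, 290.2 with control siRNA and 941 unstimulated, and Nkg7, a granule protein gene, 4599, 1922 and 311. Lta and Tnf complete the 6. Several other genes linked to Th1 cells were within 2-fold. Tbx21 (T-bet) had a log2 ratio of 0.38, Ifng of 0.47, Eomes of 0.92, Cxcr3 of 0.61, Runx3 of -0.12 and Gzmb of 0.12. The receptor subunit of IL-12 measured here, Il12rb1, had 0.23. Over the whole list of 19 interleukin and interferon receptor genes, the IL-18 receptor chains were the only ones past 2-fold. Il1rap, the accessory chain shared by the receptors of IL-1 and IL-33, had 869 with GATA3 siRNA and 436 with control siRNA, just under 2-fold. Il4ra, through which the cells sense IL-4, had a log2 ratio of 0.65, and Il2ra (CD25) of -0.30.

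Transcription regulators linked to Th2 cells were mostly near their control signals. Of 30 genes, Gata3, the target of the siRNA, and Ahr were lower and no gene higher, beside 1.01% and 1.34% of all 7523 genes. The list's median was -0.05. Ahr, the aryl hydrocarbon receptor, read 243 with GATA3 siRNA, 910.5 with control siRNA and 35.8 unstimulated. Next to 2-fold stood Crem, a cyclic AMP response factor, at -0.93 and 1400.4 with GATA3 siRNA against 2664 with control siRNA. By the mean over probe sets Crem was at -0.24. Pparg, a fatty acid receptor of Th2 cells, had -0.80, and Nfil3, a leucine zipper factor, -0.65. Maf, Gfi1, Irf4 and Batf, which act beside GATA3 in Th2 cells, had log2 ratios of -0.25, -0.20, -0.09 and -0.39, and Stat6 had 0.33. No factor of the list gained more than Nfatc1 (0.64).

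**Figure D3:**
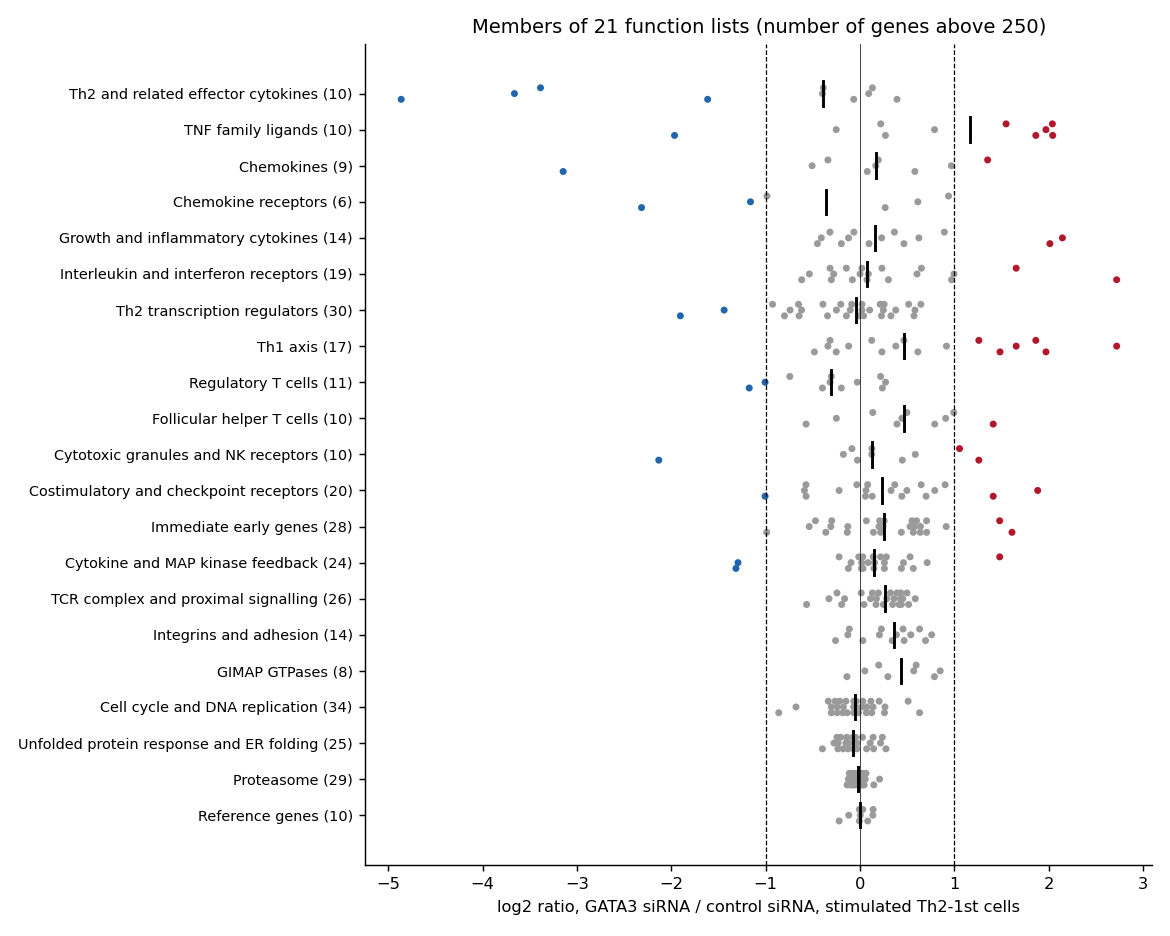
Log2 ratio of GATA3 siRNA to control siRNA in stimulated Th2-1st cells (horizontal axis) for the members of 21 function lists, 1 point per gene above 250, with the number of such genes in brackets, the list's median as a black bar and dashed lines at 2-fold. Points past 2-fold are blue (lower) or red (higher): the Th2 cytokines have 4 blue points and the TNF family ligands 5 red and 1 blue, while the proteasome and reference genes keep within a narrow band around 0.

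Other T cell programmes had small counts past 2-fold in short lists, where 1.01% of all 7523 genes were lower and 1.34% higher. Among 11 genes of regulatory T cells 2 were lower, the folate receptor homologue Izumo1r at 461 with GATA3 siRNA and 1040.3 with control siRNA, and the inhibitory receptor Ctla4 at 2358 and 4739.8, which quantile normalization left at -0.98. Ikzf4, a zinc finger factor of those cells, had a log2 ratio of -0.74. Of 10 follicular helper genes 1 was higher: Slamf6, a SLAM family receptor, read 1047 with GATA3 siRNA, 394 with control siRNA and 1126 unstimulated. Sh2d1a, the adaptor of SLAM family receptors, stood just short of 2-fold, at 0.99, and Bcl6, the factor that defines these cells, at 0.13. Cytotoxic granule genes were split. Gzma, the protease granzyme A, read 4540.5 with GATA3 siRNA, 19928 with control siRNA and 11345 unstimulated, and was lower than in either control, whereas Gzmb, granzyme B, was at 37189.6 with GATA3 siRNA and 34136 with control siRNA. Ctsw, a cysteine protease of cytotoxic cells, had a log2 ratio of 1.05, or 0.88 with the arrays centred. None of 11 naive and central memory genes was past 2-fold.

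Immediate early genes of the TCR response were mostly within 2-fold. None of 28 was lower and 2 were higher, with a median of 0.25 (0.08 with the arrays centred). Of the 28, 22 were raised by anti-TCR in control cells. Over all 7523 genes 1.34% were higher, and among those raised by anti-TCR 5.22%. Nr4a2, an orphan nuclear receptor induced by TCR signals, read 11129.9 with GATA3 siRNA, 3646 with control siRNA and 69.9 unstimulated, and a second of its 6 probe sets had a log2 ratio of 1.62. Its relatives Nr4a1 and Nr4a3 had 0.91 and 0.64, and Egr1, Egr2 and Egr3 had -0.36, 0.64 and 0.71. Dusp1, a phosphatase that ends MAP kinase signals, read 1338 with GATA3 siRNA, 479.8 with control siRNA and 466 unstimulated. Nfkbiz, an atypical inhibitor of NF-kappa B, had the lowest ratio of the list, -0.99. All 26 genes of the TCR complex and its proximal signalling were within 2-fold, with a median of 0.27 (0.09 with the arrays centred), from Malt1 at -0.57 to Ubash3b at 0.59. Cytokine and MAP kinase feedback genes were also mostly within 2-fold, with 2 of 24 lower and 1, Dusp1, higher. Socs3, the inhibitor of STAT3 signals, read 925 with GATA3 siRNA, 2267 with control siRNA and 758 unstimulated. Its ratio fell short of 2-fold by the mean over probe sets (-0.95) and without probe sets named _s_at, _x_at or _a_at (-0.72). Dusp16, a phosphatase of JNK, had 639, 1592 and 148. Of 20 costimulatory and checkpoint receptor genes, Cd160 and Slamf6 were higher and Ctla4 lower. Cd160, a receptor of HVEM, read 3665 with GATA3 siRNA, 994 with control siRNA and 192 unstimulated, and its second probe set had a log2 ratio of 2.24. Pdcd1 (PD-1) and Havcr2 (TIM-3) had 0.50 and -0.59.

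Many of the largest losses were outside the immune lists. Myo6, a myosin that moves towards the minus end of actin filaments, read 117 with GATA3 siRNA, 2184 with control siRNA and 5268 unstimulated, so that a gene already lower after anti-TCR was lower again with GATA3 siRNA. Ggct, of glutathione turnover, read 854, 8715 and 516 on those arrays. Its probe set not named _s_at, _x_at or _a_at had a log2 ratio of -1.32. Ggct was the 1 gene of 12 in the glutathione and redox list that was lower. Prxl2a, a peroxiredoxin-like protein, read 1673 with GATA3 siRNA, 8805 with control siRNA and 9432 unstimulated, and its second probe set had -2.46. The anti-TCR response of Prxl2a in control cells was small, and the GATA3 siRNA signal lay 5.26-fold under the stimulated control. Tent5a, a noncanonical poly(A) polymerase, had 597, 3896 and 1667. Abcg2, a drug and urate efflux pump, had 356, 2231 and 1109.9. In both, the GATA3 siRNA signal was lower than that of either control array. Mmp10, a secreted matrix protease, read 320.0 with GATA3 siRNA, 1845 with control siRNA and 54.8 unstimulated, and Hs3st1, a heparan sulfate sulfotransferase, 44.6, 387 and 14.5. These were induced genes whose GATA3 siRNA signal lay between the controls. For Hs3st1 the GATA3 siRNA and unstimulated signals were below the medians of their arrays (69.6 and 62.5), so their order is uncertain. Its log2 ratio was -3.12, or -2.47 once low signals were set to the median of their array. Rnf152, a ubiquitin ligase of the lysosome, Aqp3, a water and glycerol channel, and Ccdc184, a coiled-coil gene, had log2 ratios of -2.48, -2.50 and -2.61.

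Steroid and lipid genes gave 1 call each. Cyp11a1, which makes pregnenolone from cholesterol, read 2055 with GATA3 siRNA and 10676 with control siRNA, but its second probe set above the limit had a log2 ratio of 0.56 and the mean over its 3 probe sets was -0.07. Lss, lanosterol synthase, was the 1 lower gene of 17 in cholesterol synthesis, at -1.23, and was short of 2-fold by the mean over probe sets (-0.81). In the prostanoid and cyclic AMP list 1 gene of 11 was lower, the prostacyclin receptor Ptgir, at 213 with GATA3 siRNA, 488 with control siRNA and 1484 unstimulated. Asb2, a subunit of cullin ubiquitin ligases, was the 1 lower gene of 12 T cell ubiquitin ligase genes, with 405 with GATA3 siRNA and 1078 with control siRNA. Among very bright genes outside the lists, chosen after their values were seen, Ero1a, an oxidase of the endoplasmic reticulum, read 5958 with GATA3 siRNA, 15670.5 with control siRNA and 5497 unstimulated, and Gsn, the actin-severing protein gelsolin, 5012, 11415 and 6507. Both thus stood near or below the unstimulated signal with GATA3 siRNA. None of the 25 genes of the unfolded protein response was past 2-fold. Cpa3, a carboxypeptidase and 1 of the 7 mast cell and basophil markers above, read 67.7 with GATA3 siRNA and 255 with control siRNA, and a part of such cells in it was not tested.

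Among the genes that were higher outside the lists, Mpzl2, an adhesion molecule, had a wide induction. It and the next 2 genes were chosen after their values were seen. Mpzl2 read 9138 with GATA3 siRNA, 2604 with control siRNA and 1.29 unstimulated. Plk2, a kinase of stress responses, had 8009, 3059 and 194, and Lgals3, the lectin galectin-3, 14599, 7040.2 and 3589.8. S100a4, a calcium-binding protein of motile and memory T cells, read 7402 with GATA3 siRNA, 1983 with control siRNA and 5189.7 unstimulated. Its signal was thus lower after anti-TCR in control cells, and with GATA3 siRNA it stood above that of unstimulated control cells. Xdh, xanthine dehydrogenase of purine breakdown, read 679 with GATA3 siRNA and about the same in both controls, 119 stimulated and 118 unstimulated. Arc, an immediate early gene first described in neurons, had 737, 119.7 and 27.8, and F3, the clotting initiator tissue factor, 554, 147 and 4.34. The widest ratio of all upward, 3.44, belonged to the predicted gene Gm6211, at 322 with GATA3 siRNA, 29.7 with control siRNA and 193 unstimulated. Its stimulated control signal was dim, and the ratio was 2.38 once low signals were set to the median of their array. Gm19531 and 2900026A02Rik, which have no assigned role here, had 2.03 and 2.06, the second 0.73 without probe sets named _s_at, _x_at or _a_at.

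No gene was past 2-fold in many lists of housekeeping, metabolic, adhesion and signalling genes. This held for 34 of the cell cycle and DNA replication, 31 of ribosome biogenesis, 29 of the proteasome, 29 of the respiratory chain, 19 ribosomal proteins, 19 of ATF4-driven amino acid supply, 18 of NF-kappa B, 17 of cell death, 16 of glycolysis, 14 of BMP and TGF-beta signalling, 14 integrins and adhesion molecules and 8 GIMAP GTPases, small GTPases of lymphocyte survival. The list medians ran from -0.11 for BMP and TGF-beta signalling to 0.43 for the GIMAP genes, of which 7 of 8 had ratios above 0. The 10 reference genes had a median of -0.003 and a range of -0.22 to 0.14. Of 16 interferon response genes 1 was higher, the antiviral Oas1a at 1.07, or 0.90 with the arrays centred.

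Genes raised by the TCR held the largest share past 2-fold, in both directions. In control cells of the same culture anti-TCR raised 824 of the 7523 genes at least 2-fold (11.0%) and lowered 833 (11.1%). Of the raised genes 44 were lower with GATA3 siRNA (5.34%) and 43 higher (5.22%), 10.6% in all, with a Wilson 95% interval of 8.64% to 12.8% that covers counting error only. Of the lowered genes 8 were lower (0.960%) and 23 higher (2.76%), and of the 5866 others 24 (0.409%) and 35 (0.597%). The stimulated control array stands in both ratios, so the classes and the knockdown ratio are not independent of each other. The anti-TCR response of Th2-4th control cells shares no array with the knockdown pair. Classed by that response, 40 of 1127 raised genes were lower (3.55%) and 47 higher (4.17%), 6 (0.491%) and 17 (1.39%) of 1221 lowered genes, and 30 (0.580%) and 37 (0.715%) of 5175 others. In both ways of classing, the raised genes had the largest shares in both directions. More of the lowered genes were higher than lower with GATA3 siRNA, as also held for all 7523 genes (101 and 76). Centring the arrays turned that balance over all genes, to 119 lower and 63 higher. A gene could also enter through its higher signal alone, as Gm6211 did with GATA3 siRNA and Ptgir with control siRNA. The split of the lowered genes by direction is not given here for both signals above 250.

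**Figure D4:**
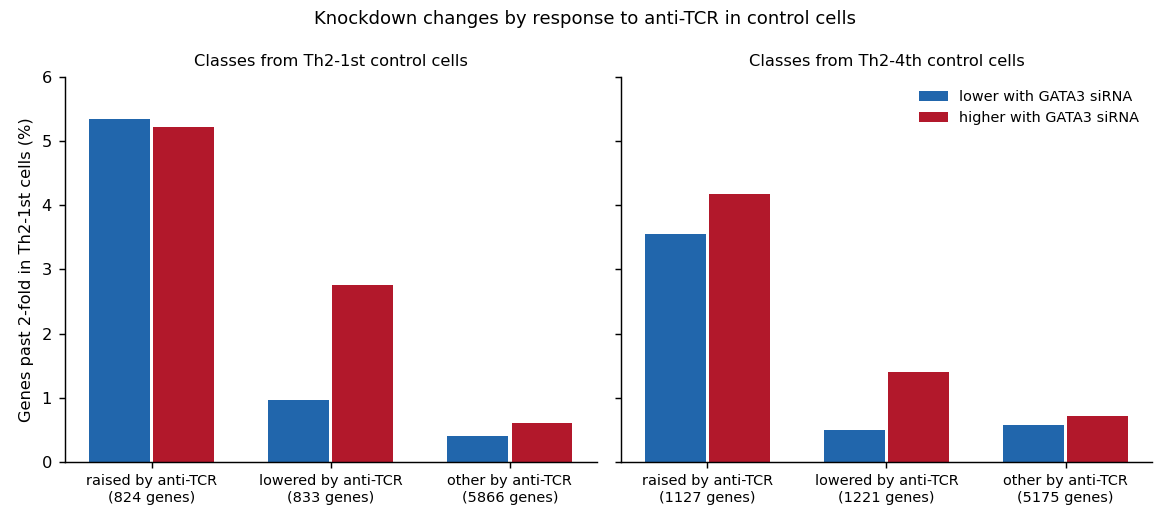
Share of genes past 2-fold between GATA3 siRNA and control siRNA in stimulated Th2-1st cells (vertical axis, percent of the genes of a class), lower in blue and higher in red, for genes raised, lowered or left within 2-fold by anti-TCR in control cells. Classes come from Th2-1st control cells on the left, which share the stimulated control array with the knockdown ratio, and from Th2-4th control cells on the right, which share none; the raised class has the tallest bars in both, 5.34% and 5.22% on the left and 3.55% and 4.17% on the right.

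The lower and higher genes were also set against the unstimulated control array. Of the 44 lower genes that anti-TCR raised, 20 stayed at least 2-fold above their unstimulated signal with GATA3 siRNA, as Il5 and Il13 did, 22 were within 2-fold of it and 2 were below. All 43 higher genes that anti-TCR raised lay above it, which the 2-fold cut-offs of both ratios fix in advance. Of the 23 higher genes that anti-TCR lowered, 19 were within 2-fold of their unstimulated signal with GATA3 siRNA and 4 were still below it. For these 23 and for the 44, the stimulated control array enters both cut-offs with opposite sign. A signal nearer the unstimulated one is thus partly built in. Ltb, S100a4, Stat4 and Slamf6 belonged to the 19, while Ms4a6b, a membrane protein of T cells, belonged to the 4, at 5648 with GATA3 siRNA, 2508 with control siRNA and 14269 unstimulated. The 8 lower genes that anti-TCR lowered were all at least 2-fold below their unstimulated signal, which the same cut-offs also fix in advance. Besides Myo6 and Ptgir they included Ptpn13, a tyrosine phosphatase, at 121, 458 and 1107 on the 3 arrays, and Rps6ka5, the kinase MSK1, at 417, 974 and 2782. The second probe set of Rps6ka5 above the limit had a log2 ratio of -0.49. Fgl2, a secreted immunoregulatory protein, read 108 with GATA3 siRNA, 262 with control siRNA and 2271 unstimulated. An unstimulated array with GATA3 siRNA was not analysed here, so resting and induced expression cannot be separated for any of these genes.

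In Th2-4th cells, whose arrays are separate but whose siRNAs were the same, some of the lower and of the higher genes were past 2-fold the same way again. Over the same 7523 genes, 81 were lower (1.08%) and 60 higher (0.798%) with GATA3 siRNA in Th2-4th cells. Of the 76 genes lower in Th2-1st cells, 41 were lower there as well, which is 53.9% of them (Wilson 95% interval 42.8% to 64.7%) and 50.6% of the 81. Of the 101 higher genes, 24 were higher there as well, 23.8% of them (16.5% to 32.9%) and 40.0% of the 60. With the arrays centred these shares were 39.5% and 38.1%, so the order of both directions rests on the scaling. Both intervals cover counting error only: they take the genes as independent, and each culture has 1 array pair. The sign was the same in 71 of the 76 and 93 of the 101, where 48.1% of all 7523 genes had a log2 ratio below 0 in Th2-4th cells and 51.9% above. Ratios were smaller in Th2-4th cells for 58 of the lower and 92 of the higher genes, with medians of -1.08 and 0.72 against -1.45 and 1.33 in Th2-1st cells; since the genes were chosen on the Th2-1st ratio, part of that gap is built into the choice.

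Single genes differed widely between the cultures. Il5 read 10857 with GATA3 siRNA and 44722 with control siRNA in Th2-4th cells, a log2 ratio of -2.04 against -4.86 in Th2-1st cells. Il13 read 18108 and 35292 there, -0.96 against -3.39. Il6 kept most of its difference, with 6104 and 45438 and a log2 ratio of -2.90. Cxcr6 and Gzma were much brighter in Th2-4th cells and barely differed, Cxcr6 at 11844 with GATA3 siRNA and 15865 with control siRNA, and Gzma at 40216 and 50804. Both Gzma signals, and the control siRNA signals of Il5, Il13 and Il6 in Th2-4th cells, were within 2-fold of the brightest probe set of their array, where a linear response was not tested. Ltb read 4173 with GATA3 siRNA and 2421 with control siRNA in Th2-4th cells, and S100a4 28716 and 22449. Slamf6 had the wider ratio in Th2-4th cells, 2.15, on signals of 53.1 and 11.9. The immediate early genes had a median of -0.22 in Th2-4th cells and the TNF family ligands of 0.30, while the 10 reference genes had -0.20 there.

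**Figure D5:**
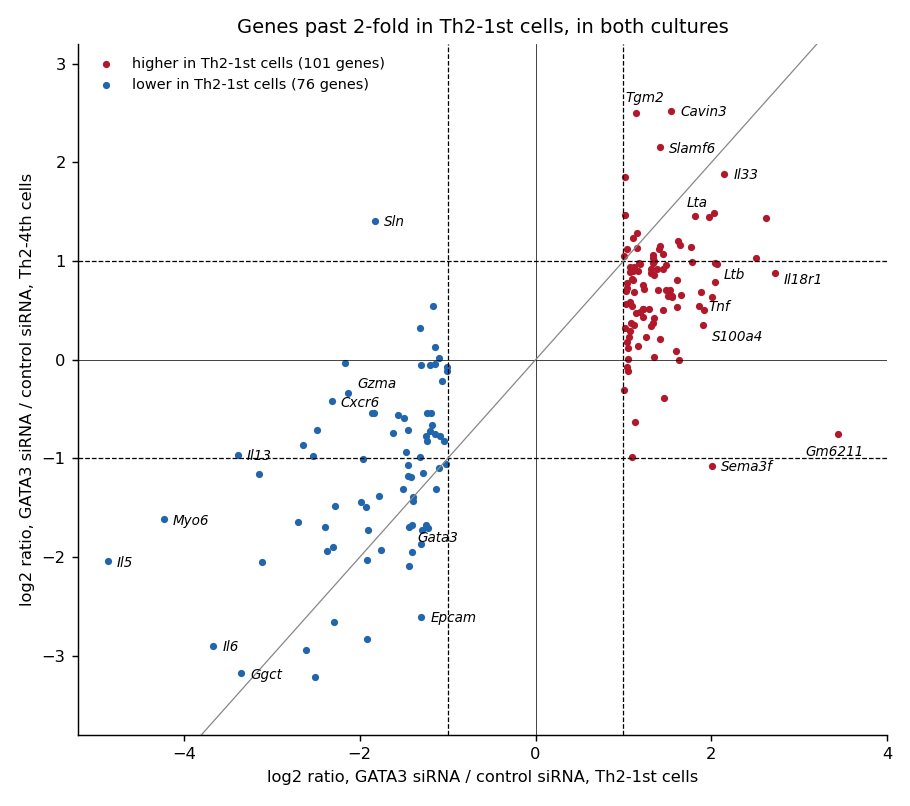
Log2 ratio of GATA3 siRNA to control siRNA in Th2-4th cells (vertical axis) against Th2-1st cells (horizontal axis) for the 76 lower (blue) and 101 higher (red) genes, 1 point per gene, with dashed lines at 2-fold and a diagonal of equal ratios. Most points lie on the same side of 0 in both cultures and closer to 0 on the vertical axis, and Sln, Sema3f and Gm6211 lie on opposite sides.

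The study's own lists of Th2-specific genes, split by whether GATA3 binds them, were partly above the limit. Of the 17 bound target genes 12 were above 250, and 8 of these were lower and none higher, with a median of -1.43. Gata3, the target of the siRNA, is among the 8 and in the median. Over all 7523 genes 1.01% were lower. Besides the cytokines, Gzma, Cyp11a1, Asb2 and Gata3, the eighth was Tmtc2, a protein mannosyltransferase, at 202 with GATA3 siRNA and 536 with control siRNA. Those within 2-fold were Il4, Crem, Nfil3 and Epas1 (HIF-2 alpha, -0.65). In the study's quantitative PCR of Th2-1st cells, Il4 and Nfil3 were lower by more than 2-fold, and Crem and Epas1 by less. Of the 15 unbound genes 10 were above 250, with 2 lower, Ptgir and the scaffold gene Tanc2, at 328 with GATA3 siRNA and 929.9 with control siRNA. None was higher, and the median was -0.68. In this group Ecm1, an extracellular matrix protein of Th2 cell egress, had 1855 with GATA3 siRNA and 3103 with control siRNA, and Penk, the precursor of enkephalins, 13544 and 16426. The thrombin receptor F2r had a log2 ratio of -0.64, the ubiquitin ligase Rnf128 of -0.88 and the calcium-binding S100a1 of -0.72. Tube1, an epsilon tubulin, Il1r2, the decoy receptor of IL-1, and the MAP kinase phosphatase Dusp4 stood above 0, at 0.81, 0.60 and 0.53. By the study's PCR in Th2-1st cells, Il1r2 was lower, and Tube1 and Dusp4 were higher. The labels of bound and unbound come from other experiments of the study and were not tested on these arrays.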

How the data were processed

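RNA of 6 cell samples was hybridised to Affymetrix mouse genome arrays, and the authors deposited a linear intensity per probe set (45101 in all) from the Affymetrix Expression Console. The sources used here give neither its version nor its algorithm. The deposited intensity values had a mean of 500.0 on every array once the lowest and highest 2% of probe sets were left out, so the arrays were already scaled, and no further scaling was applied. By the platform annotation 34958 probe sets belonged to 1 gene, 932 to several and 9211 to none, and 34754 of the first matched a RefSeq gene for current symbols. The brightest probe set by mean log2 signal stood for each of 18194 genes, 9012 of which had several. A gene counted as lower or higher at a ratio of at most 0.5 or at least 2. With 1 array per condition no test of a difference within Th2-1st cells was possible, and the number of arrays limits the precision.

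The genes and the 40 function and study lists were chosen with earlier results of these data known. Genes were named by a rule: Gata3, the 15 lowest and 15 highest ratios, up to 4 genes past 2-fold in each direction and the brightest gene of each list, the 6 most changed genes of each class of TCR response and direction, the 5 most opposite in Th2-4th cells, the study's Th2-specific genes and those next to the signal limit. Other list members and bright genes were named after their values were seen. The steps were tested on simulated data, and the alternatives are given in the closing section. Python 3.11.15 with numpy 2.4.6, pandas 2.3.3, scipy 1.17.1 and matplotlib 3.10.9 was used.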

Additional observations from a re-analysis of the deposited data

Results flagged for a closer look

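Sln, the sarcolipin gene of calcium transport in muscle, and Sema3f, a secreted guidance protein gene, were past 2-fold in opposite directions in the 2 cultures. For Sln the log2 ratio of GATA3 siRNA to control siRNA was -1.83 in Th2-1st cells, while Th2-4th cells had 1.41. For Sema3f it was 2.01, while Th2-4th cells had -1.07. The Th2-1st ratio of Sema3f was 1.29 by the mean over probe sets and 0.47 without probe sets named _s_at, _x_at or _a_at. Its 2-fold difference in that culture was thus lost under the second setting. In Th2-4th cells the 3 arrays read 96.2, 36.2 and 104.8 for Sln and 25.2, 53.0 and 33.1 for Sema3f (GATA3 siRNA, control siRNA and unstimulated control siRNA), below the limit of 250 used for Th2-1st cells. Each ratio comes from 1 array pair, and the difference between the cultures was not tested.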

How the results depend on the processing

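As deposited, 76 genes were lower and 101 higher, and 10.6%, 3.72% and 1.01% of the genes raised, lowered or left within 2-fold by anti-TCR were past 2-fold. With the arrays centred on their medians, 119 were lower and 63 higher, and 39.5% of the lower and 38.1% of the higher genes were past 2-fold the same way in Th2-4th cells. A signal limit of 100 gave 137 and 269 genes, shares of 13.3%, 7.40% and 2.37%, and 42.3% of the lower genes lower in Th2-4th cells as well. A limit of 500 gave 67 higher genes. Asking for both signals above the limit gave 41 and 60 genes and shares of 7.02%, 1.79% and 0.624%, which leaves out genes near background on 1 array. The study's stricter threshold for a substantial change (the square root of 10) gave 32 and 19 genes, shares of 7.27%, 0.463% and 0.318%, and 5.26% of the higher genes higher in Th2-4th cells as well. Classes from Th2-4th control cells gave 7.72% and 1.88% for raised and lowered genes. The other 42 values stayed within counting error or 1.5 times. These span the settings above, quantile normalization, probe set means, no _s_at, _x_at or _a_at probe sets, and low signals raised to the array median. Among named genes, Crat turned to -0.44 by the mean over probe sets and Ddhd1 to -0.77 without _s_at, _x_at and _a_at probe sets. Of 73 named genes past 2-fold, 8 fell short by the mean over probe sets, 5 after centring and 1 after quantile normalization. Without _s_at, _x_at and _a_at probe sets 6 of 65 did. No paired analysis was possible because Th2-1st cells have 1 array per condition; a fit of an effect common to both cultures was not run. The causes of these shifts were not tested.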
